A study of Mus musculus with 18 samples.

Results

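The genes described here encode the subunits of the ion channels that glutamate, GABA and glycine open directly. They were chosen by symbol: every AMPA, delta, kainate and NMDA glutamate receptor subunit and every GABA-A and glycine receptor subunit named in the table was taken, which gave 42 genes of 22783. Of these, 32 had a value of at least 1 FPKM (a count of sequenced fragments scaled by gene length and library size) in 3 or more of the 18 libraries and were among the 13487 genes tested. The other 10 were Gabre, Gabrg3, Gabrp, Gabrq, Gabrr1, Gabrr2, Gabrr3, Glra3, Glra4 and Grin3b, and they are called silent here in the sense of that threshold alone.

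The libraries are RNA-seq of mouse cerebellum on the FVB strain. The 2 genotypes were Cck-/-, a knockout of the cholecystokinin gene by its label, and ATXN1[30Q]D776/Cck-/-, which carries in addition a human ataxin 1 transgene with an unexpanded glutamine repeat and an aspartate in place of the serine whose phosphorylation matters for ataxin 1 toxicity. The latter is called transgenic below. Each genotype was sampled at postnatal weeks 5, 12 and 28 with 3 libraries a group, and since every group is labelled Cck-/-, no comparison here includes mice with intact Cck. The transgene of this line is generally described as driven by the Purkinje cell promoter of Pcp2, which the labels do not state. The labels also do not state whether the replicates came from separate animals, so the p-values measure only the spread between these libraries.

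At fast excitatory synapses glutamate opens AMPA receptors, built from Gria1 to Gria4 subunits, and a channel without the Gria2 subunit passes calcium. NMDA receptors need both glutamate and a co-agonist, and kainate receptors tune release and excitability. Delta receptors are relatives of these that act mainly as organisers of the synapse, through cerebellins and neurexins. GABA-A and glycine receptors carry chloride. In the cerebellum the GABA-A subunits Gabra6 and Gabrd are hallmarks of granule cells, while Gria1 and Gria4 are the main AMPA subunits of Bergmann glia, which wrap Purkinje cell synapses.

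The 18 libraries had between 12767 and 13323 genes at 1 FPKM or more, and their read depth is not known from the FPKM values. Correlation of log2 values ran from 0.984 to 0.996 within groups. The Purkinje cell gene Pcp2 stood between 684 and 817 FPKM in Cck-/- libraries, at 605 to 731 and 596 to 726 in transgenic libraries of weeks 5 and 12, and at 232 to 490.2 in those of week 28, so this defining gene of the cerebellum was present in every library. Cck itself was listed in all libraries, at 17.1 to 25.8 FPKM in Cck-/- and 81 to 112 FPKM in transgenic cerebella at week 5, but at 11.1 to 16.6 and 12.8 to 17.1 at week 12 and at 3.71 to 7.34 and 4.85 to 8.35 at week 28. The labels do not say which part of Cck is deleted, so these values do not check the genotype, and at week 5 the level of Cck and the transgene cannot be told apart. Mouse Atxn1 stayed between 4.05 and 7.01 FPKM, and the human transgene was not analysed here. Choroid plexus genes were low in 3 libraries (transgenic week 5 replicates 1 and 2 and transgenic week 28 replicate 3), and in 2 libraries Xist and Y-linked genes reached 1 FPKM together (transgenic week 12 replicate 2 and transgenic week 28 replicate 1). Results that rest on these libraries are given with and without them.

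In levels, which are comparable between genes because FPKM is per length, a GABA-A subunit led. Gabra6, the granule cell alpha subunit, averaged 361 FPKM over the 18 libraries, with a range of 250.04 to 464. It stood above 99.5% of the genes in the table. Among the other abundant genes were Gria4 at 147, Gria1 at 109, Gabrd (the delta subunit of receptors outside synapses) at 107 and Glrb (the glycine receptor beta subunit, which anchors the receptor to gephyrin) at 102 FPKM. The obligatory NMDA subunit Grin1 averaged 92.5, and its main partner here was Grin2c at 78.5, a subunit known for mature granule cells, whereas Grin2a was at 4.36 and Grin2b at 0.804. Grid1, which encodes a delta receptor, averaged 10.7 FPKM. Among kainate subunits the order was Grik5 (24.4), Grik2 (22.9), Grik3 (14.6), Grik1 (5.99) and Grik4 (5.94 FPKM), so the last pair had nearly equal means.

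**Figure D1:**
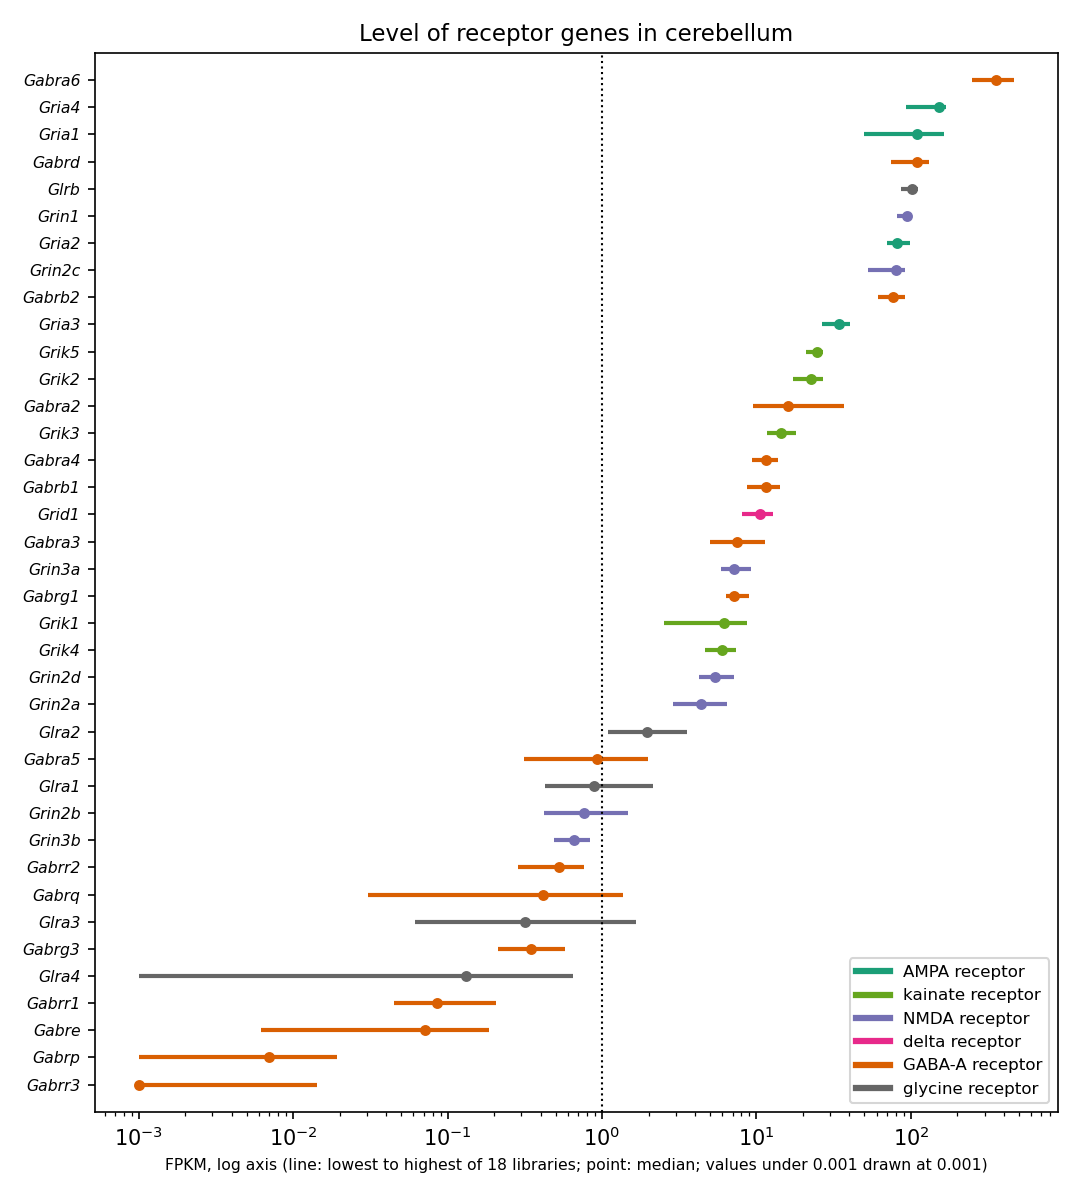
FPKM of receptor genes, those below the threshold included, on a log axis, coloured by family, with a line from the lowest to the highest of 18 libraries, a point at the median and a dotted line at 1 FPKM. Gabra6 sits at the top with a mean of 361 FPKM, and the lines of Gabra5, Glra1, Grin2b, Gabrq and Glra3 cross 1 FPKM.

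The glycine receptor genes were dominated by the beta subunit. Glrb made up between 95% and 97.5% of the summed glycine receptor FPKM in the 6 groups, while the ligand-binding alpha subunits Glra2 and Glra1 averaged 2 and 0.973 FPKM. The threshold fell between genes of similar level: Grin2b reached 1 FPKM in 3 libraries, Glra1 in 6 and Gabra5 in 8, while just outside it Gabrq reached it in 2 and Glra3 in 1. The retinal rho subunits Gabrr1 and Gabrr3 averaged 0.102 and 0.00204 FPKM. Grin3b averaged 0.634 FPKM, but 32.1% of its annotated exon bases also belong to Tmem259 on the opposite strand, a gene with a median of 64.1 FPKM. The sources used here do not state whether strand was used, so reads of that pair cannot be told apart.

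Several of these genes are neighbours. On mm10 the GABA-A genes Gabra6 (chr11:42306437-42321072) and Gabrb2 (chr11:42419757-42632591) lie in a cluster on chromosome 11 and averaged 361 and 76.6 FPKM. The chromosome 5 cluster of Gabrg1, Gabra2, Gabra4 and Gabrb1 was lower, between 7.4 and 17.6 FPKM. On chromosome 7, Gabra5 averaged 1.04 FPKM and Gabrg3 0.39. On the X chromosome Gabra3 averaged 7.82 FPKM between Gabre at 0.0847 and Gabrq at 0.491. Gria2 (chr3:80684936-80802791) and Glrb (chr3:80843599-80913660) lie side by side on chromosome 3. The 4 genes of the chromosome 5 cluster were above 1 FPKM in all 18 libraries, while the X cluster held genes on both sides of that level.

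The comparison of genotypes asks which receptor genes differ where the transgene is present, at each age. At week 28, 6 receptor genes were lower in transgenic than in Cck-/- cerebella, among them Grik1, Gria1, Gria4 and Glrb. None of the 32 receptor genes tested was called higher. A gene counts as called when limma's moderated test on log2(FPKM + 1) gave an adjusted p under 0.05 over all 13487 genes, and log2 changes below are transgenic minus Cck-/- on that scale, which understates the change of low genes. The 6 called genes are 18.8% of the 32, beside 10.7% of all genes tested. For decreases alone the shares are 18.8% and 6.13%, and for increases 0 of 32 genes and 4.54%. The median log2 change of the 32 was 0.0061, beside 0.0046 over all genes tested. Grik1 was called in every alternative fit run, and Gria1, Gria4 and Glrb were lost when the 2 groups of week 28 were fitted alone. Leaving out 1 library of week 28 gave between 2 and 9 calls, 2 without transgenic replicate 1 or 2 and 9 without transgenic replicate 3.

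The RNA is from whole cerebellum, where fewer cells of a type and less RNA per cell cannot be told apart. Of 10 Purkinje cell markers, all 10 fell at week 28, with a median log2 change of -1.44. Their summed FPKM was 1017 to 1966 in transgenic and 3069 to 3279 in Cck-/- libraries, and no marker was at 0. At week 12 the sums were 2480.0 to 2717 and 3288 to 3538, with 4 of 10 markers called lower, and at week 5 they were 2566 to 2904 and 3148 to 3353, also with 4 called lower. At week 28 these levels were lower along with the receptor genes called there. At weeks 5 and 12, where the sums were also lower, Grik1 was called lower but Gria1, Gria4 and Glrb were not. The part of the Purkinje cell markers in the result was not tested.

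Grid1, a delta receptor gene, was called at week 5. It was 8.01, 10.1 and 8.98 FPKM in Cck-/- and 11.1, 12.4 and 11.3 in transgenic libraries, higher without overlap (log2 change 0.33, SE 0.08, adjusted p = 0.021). At weeks 12 and 28 its log2 differences of -0.01 and 0.03 were not called, and the groups overlapped.

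Grik1 (chr16:87895897-88290258), a kainate receptor subunit of the low-affinity class, was called lower at all 3 ages. It was 7.24, 7.55 and 7.68 FPKM in Cck-/- and 5.97, 5.29 and 5.04 in transgenic libraries at week 5 (log2 change -0.40, SE 0.11, adjusted p = 0.0435). At week 12 the values were 8.68, 7.65 and 6.95 against 5.53, 4.36 and 5.37 (log2 change -0.53, SE 0.11, adjusted p = 0.0324). At week 28 they were 7.43, 6.4 and 6.68 against 3.48, 2.54 and 4.07 (log2 change -0.86, SE 0.11, adjusted p = 0.000176). The groups did not overlap at any age. Its share of the summed kainate receptor FPKM at week 28 was 4.75% ± 0.923 against 9.75% ± 0.881 in Cck-/- (SD, n = 3 each). The change in effect from week 5 to week 28 was -0.46 (SE 0.16, adjusted p = 0.133), so a growing effect was not called. Without the 3 libraries low in choroid plexus genes, the week 5 call was lost (adjusted p = 0.111) and the week 28 call was kept (adjusted p = 0.000157). Without the 2 libraries in which Xist and Y-linked genes occur together, the week 12 call was lost (adjusted p = 0.252) and the week 28 call was kept (adjusted p = 0.00108). The week 12 call was also lost without Cck-/- week 12 replicate 1 or 2 or transgenic replicate 2, and of the 6 fits that left out 1 library of week 5 the week 5 call was kept in the one without transgenic replicate 1. With a pseudocount of 0.1 or no filter on FPKM the week 5 call was lost. The week 12 call was lost with no filter and with the groups of week 12 fitted alone.

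No other kainate gene was called between genotypes at a single age. Grik4, a high-affinity subunit that needs a partner to form a channel, was 5.51, 5.36 and 5.74 FPKM in Cck-/- and 7.2, 6.56 and 7.35 in transgenic libraries at week 5, and 6.08, 6.12 and 5.95 against 4.85, 4.62 and 5.86 at week 28. It was thus higher without overlap at week 5 and lower without overlap at week 28, with neither difference called (adjusted p = 0.0546 and 0.147). The difference between these effects was called: -0.51 on the log2 scale, SE 0.13, adjusted p = 0.0382, the single receptor gene of 32 where 3.65% of all genes were called. It was lost in 10 of the 12 fits that left out 1 library of weeks 5 and 28, and kept only without Cck-/- week 28 replicate 1 or transgenic week 28 replicate 3. Grik3 had a log2 difference of 0.40 at week 5 without a call (adjusted p = 0.0546). Grik5 and Grik2, at 25.8 ± 1.19 and 21.3 ± 0.665 FPKM in transgenic and 23 ± 1.75 and 19 ± 1.68 in Cck-/- cerebella at week 28 (SD, n = 3 each), were higher without overlap there and not called.

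Of the 4 AMPA receptor genes, Gria1 and Gria4 were called lower at week 28. Gria1 (chr11:57011618-57330244) was 163, 113 and 98.3 FPKM in Cck-/- and 53.7, 49.4 and 104 in transgenic libraries at week 28, and replicate 3 of the transgenic group lay within the Cck-/- range (log2 change -0.89, SE 0.22, adjusted p = 0.0176). Gria4 (chr9:4417893-4796234) was 151, 141 and 134 against 99.98, 93.4 and 140.1, and the same transgenic library overlapped the Cck-/- group (log2 change -0.37, SE 0.11, adjusted p = 0.0452). That library also had the highest Purkinje marker sum of its group and the lowest choroid plexus sum, 60.3 FPKM. Without it the adjusted p was 0.000124 for Gria1 and 0.00016 for Gria4, and without transgenic replicate 2 it was 0.109 and 0.229. The call of Gria1 also ended without transgenic replicate 1 or Cck-/- replicate 1, and that of Gria4 without transgenic replicate 1 or any 1 of the Cck-/- libraries of week 28. Gria4 was also lost with no filter on FPKM and with no mean-variance trend, and both genes were lost with a replicate block. At weeks 5 and 12 the log2 differences of Gria1 were 0.02 and -0.19 and those of Gria4 0.14 and -0.05, none of them called.

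Gria2 and Gria3 were not called at any age. Gria2 (chr3:80684936-80802791), the subunit that blocks calcium entry, was 84.4, 78 and 81.1 FPKM in Cck-/- and 92.8, 99.3 and 87.9 in transgenic libraries, higher without overlap and not called (log2 change 0.20, SE 0.08, adjusted p = 0.124). Without the 3 libraries low in choroid plexus genes it was called, at a log2 change of 0.24 and an adjusted p of 0.0376. At week 12 it was 89, 81.3 and 82.5 against 79.8, 70.4 and 73.3, lower without overlap and not called (log2 change -0.18, adjusted p = 0.382). The difference between those effects was 0.37 (SE 0.11, adjusted p = 0.399) and was not called. The log2 difference of Gria3 was -0.28 at week 28 and was not called (adjusted p = 0.182), but it was called lower without transgenic replicate 3, and in the fit without the 3 libraries low in choroid plexus genes. As shares of AMPA receptor FPKM at week 28, Gria2 took 31.5% ± 7.03 of the summed FPKM in transgenic and 21.2% ± 1.9 in Cck-/- cerebella, and Gria1 took 22% ± 5.23 and 32% ± 4.83 (SD, n = 3 each, not tested). The family sum was 305 ± 58.8 against 385 ± 44.7 FPKM.

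Of 9 Bergmann glia and astrocyte markers, 5 fell and 2 rose at week 28, and their summed FPKM was 1139 to 1267 in transgenic and 1253 to 1448 in Cck-/- libraries, overlapping ranges. Of 8 microglia markers 5 rose, with sums of 145 to 204 and 93.6 to 136 FPKM. Of 10 granule neuron markers 1 rose, with sums of 1412 to 1513 and 1150.1 to 1615. Of 8 oligodendrocyte markers 2 rose, and their sums of 2819 to 3246 in transgenic libraries lay above the 2025 to 2626 of Cck-/- without overlap. Of 9 interneuron markers 2 fell, with overlapping sums of 649 to 1104 and 1025 to 1145. No marker of these 5 lists was at 0, and their part in the result was not tested.

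**Figure D2:**
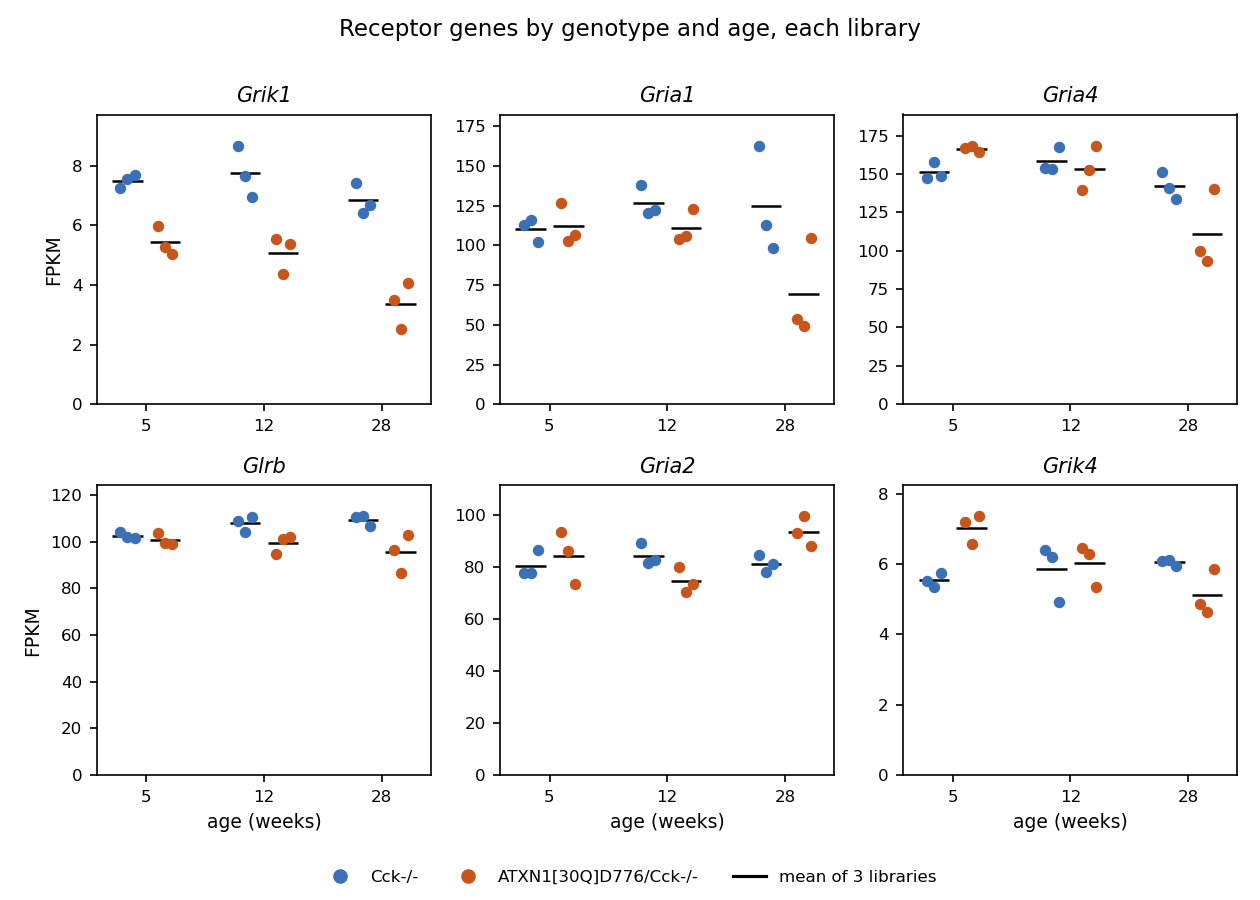
FPKM of 6 receptor genes (Grik1, Gria1, Gria4, Glrb, Gria2 and Grik4) in each library by age in weeks, with Cck-/- and transgenic libraries side by side and bars at the mean of 3 libraries. Grik1 is lower in all transgenic libraries at every age, while for Gria1 and Gria4 1 transgenic library of week 28 overlaps the Cck-/- group.

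None of the 6 NMDA receptor genes tested was called at week 12 or 28. Grin1 was 86.4 ± 4.5 FPKM in transgenic and 93.1 ± 10.3 in Cck-/- cerebella at week 28 (SD, n = 3 each; log2 change -0.10, SE 0.08), and the log2 difference of Grin2c was 0.06 (SE 0.13). Grin1os on the opposite strand shares 13.5% of the exon bases of Grin1 and had a median of 1.5 FPKM. Grin3a, a glycine-binding subunit that lowers calcium entry, rose at week 5: it was 6.5, 6.77 and 6.91 FPKM in Cck-/- and 8.09, 8.98 and 9.14 in transgenic libraries, without overlap (log2 change 0.33, SE 0.08, adjusted p = 0.0231). At week 28 its log2 difference of 0.24 came with overlapping groups and was not called (adjusted p = 0.0763); it was called higher without the 2 libraries in which Xist and Y-linked genes occur together, and without Cck-/- replicate 1. Grin2a, Grin2b and Grin2d had log2 differences of -0.08, 0.05 and 0.05 at week 28, none called.

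Among the GABA-A receptor genes, Gabrb2 and Gabra6 of the chromosome 11 cluster were not called between genotypes. Gabrb2, a beta subunit of the commonest synaptic receptor, was 70.4, 70.6 and 71.6 FPKM in Cck-/- and 60.8, 63.4 and 69.2 in transgenic libraries at week 28, lower without overlap (log2 change -0.14, SE 0.06, adjusted p = 0.159). At week 12 it was 88.4, 76.8 and 86.1 against 72.4, 75.4 and 75.8, again lower without overlap (log2 change -0.16, adjusted p = 0.244). Without the 3 libraries low in choroid plexus genes, Gabrb2 was called lower at week 28. Gabra6 and Gabrd, the granule cell subunits, had log2 differences of -0.15 and 0.07 at week 28, with adjusted p of 0.555 and 0.824.

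Gabra3 was higher in transgenic cerebella at week 5, with 4.98, 5.28 and 5.07 FPKM in Cck-/- and 6.08, 6.95 and 6.83 in transgenic libraries, without overlap (log2 change 0.32, SE 0.08, adjusted p = 0.0281). At weeks 12 and 28 its log2 differences were -0.02 and 0.10 and were not called. The chromosome 5 genes Gabra2, Gabra4, Gabrb1 and Gabrg1 had log2 differences of 0.19, -0.04, 0.08 and 0.16 at week 28, and on chromosome 7 Gabra5 had 0.29, none called. Gabra2 had a wide spread within groups: at week 28 the Cck-/- libraries were 37, 17.1 and 13.8 FPKM. The summed GABA-A FPKM at week 28 was 789.8 ± 49.8 in transgenic and 873 ± 44.3 in Cck-/- cerebella.

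Glrb, the one called gene of the glycine receptors, was lower by a small amount at week 28. Its FPKM was 110.4, 111 and 107 in Cck-/- and 96.6, 86.7 and 103 in transgenic libraries, without overlap (log2 change -0.20, SE 0.05, adjusted p = 0.0245). At week 12 it was 109, 104 and 110.4 against 94.9, 101 and 102, also without overlap and not called (adjusted p = 0.384), and at week 5 its log2 difference was -0.03 with overlapping groups. The week 28 call was lost without transgenic replicate 1 or 2 or Cck-/- replicate 2, with adjusted p of 0.0618, 0.132 and 0.0884. The alpha subunits Glra1 and Glra2 had log2 differences of 0.03 and 0.44 and were not called, at levels near the threshold. Gm12236 on the opposite strand shares 5.84% of the exon bases of Glra1.

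For 2 of the 6 genes that fell at week 28, Gria4 and Glrb, the RefSeq promoter table (GRCm38.p6, the same assembly as mm10) holds a window, and both are shown because their genes fell together. Each is the 250 bases before the annotated start on the minus strand, written 5′ to 3′, with CG dinucleotides in capitals. The Gria4 window is chr9:4796235-4796484 and the Glrb window chr3:80913661-80913910.
Gria4: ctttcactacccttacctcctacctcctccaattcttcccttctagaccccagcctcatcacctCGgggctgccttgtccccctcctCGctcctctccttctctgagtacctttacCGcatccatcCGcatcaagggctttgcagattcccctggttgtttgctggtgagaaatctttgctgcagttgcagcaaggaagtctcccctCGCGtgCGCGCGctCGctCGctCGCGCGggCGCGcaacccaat
Glrb: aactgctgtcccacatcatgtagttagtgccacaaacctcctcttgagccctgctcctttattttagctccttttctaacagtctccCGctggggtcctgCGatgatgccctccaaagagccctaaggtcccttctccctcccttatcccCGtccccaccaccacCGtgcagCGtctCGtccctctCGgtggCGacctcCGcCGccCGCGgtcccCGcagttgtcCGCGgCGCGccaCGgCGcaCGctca
They hold 16 and 20 CG dinucleotides and are 58.8% and 62.4% GC. The same 250 bases before the start in all 32851 windows of the table had a median of 6 CG, with quartiles of 2 and 16. The table holds 29 of the 42 receptor genes, and 19 of these are above the threshold, with 23 windows between them. The octamers TGAATGAA and TGAATGGA, bound by Capicua, a repressor that forms a complex with ataxin 1, and the half-site AGGTCA of nuclear receptors were searched on both strands of these 250 bases. They occur in 1.08%, 1.01% and 14.0% of all windows, and in 0, 0 and 1 of the 23 windows of receptor genes above the threshold, the last being Grin2c. None of the 3 was found in the windows of Gria4 and Glrb, which describes these letters in these windows and nothing of the factors.

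At week 5 Grid1, Grin3a and Gabra3 were higher and Grik1 was lower in transgenic cerebella, and at week 12 Grik1 was lower. At week 5, 4 of 32 receptor genes were called, 3 higher (Grid1, Grin3a and Gabra3) and 1 lower (Grik1), or 12.5% beside 7.67% of all genes, of which 3.3% were higher and 4.37% lower. Groups did not overlap for 9 genes higher and 6 lower, beside 15.1% and 16% of all genes. At week 12, 2 genes were called, both lower and Grik1 among them, or 6.25% beside 1.36% of all genes (0.282% higher and 1.08% lower), and groups did not overlap for 0 genes higher and 6 lower (among them Grik1, Gabrb2, Gria2 and Glrb) beside 7.95% and 8.74%. At week 28 the same counts were 3 higher (Grik5, Gria2 and Grik2) and 6 lower (among them Grik1, Glrb, Grik4 and Gabrb2), beside 13.2% and 12.9%. Without the 3 libraries low in choroid plexus genes, none of the 4 week 5 calls was kept, with Grid1, Grin3a and Gabra3 at adjusted p of 0.231, 0.137 and 0.171; that fit leaves 1 transgenic library of week 5, assumed to vary like the other groups. None of them was kept either without Cck-/- replicate 1, Cck-/- replicate 3 or transgenic replicate 2. Of 9 interneuron markers 4 rose at week 5, with sums of 1035 to 1065 FPKM in transgenic and 879 to 966 in Cck-/- libraries, and 6 of 8 oligodendrocyte markers fell, with sums of 3947 to 4066 and 4943 to 5980.3. Of 9 Bergmann glia and astrocyte markers 2 fell, with sums of 1305 to 1414 and 1553 to 1609. No blood or meninges marker was called, but blood sums were 306 to 424 in transgenic and 559 to 899 in Cck-/- libraries and meninges sums 1576 to 2019 and 1051 to 1439. The genotypes did not overlap in any of these 5 sums. No marker of these lists was at 0, and their part in the week 5 result was not tested.

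**Figure D3:**
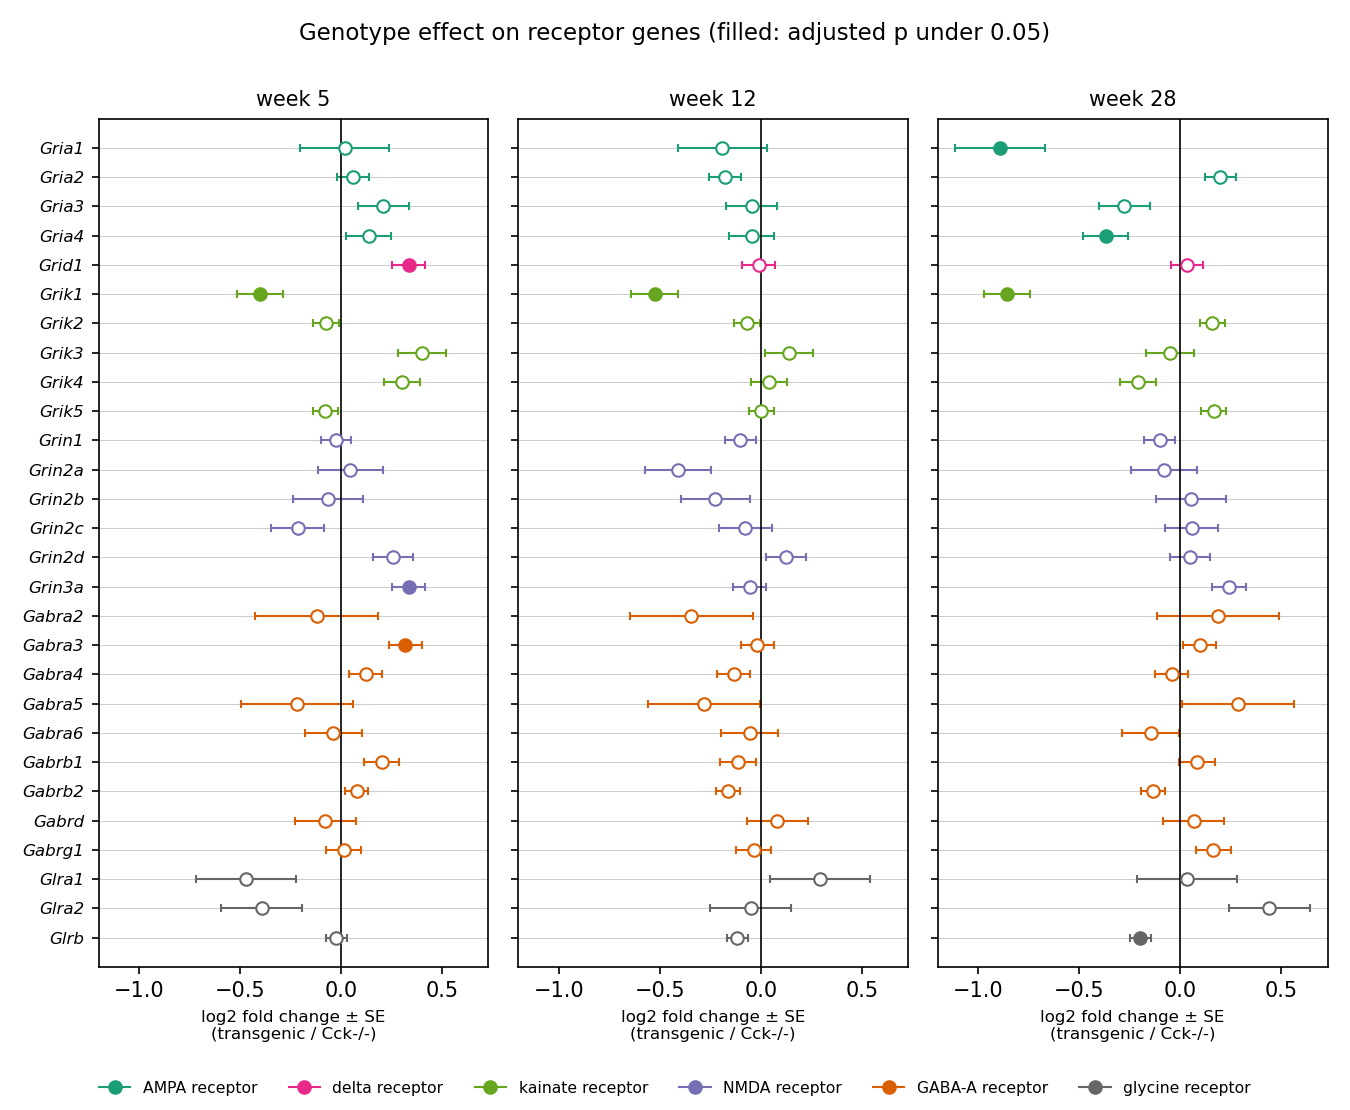
Log2 change, transgenic minus Cck-/-, of log2(FPKM + 1) for receptor genes tested at weeks 5, 12 and 28, with bars of 1 SE and filled points for adjusted p under 0.05. All filled points of weeks 12 and 28 lie below 0, and at week 5 Grid1, Grin3a and Gabra3 lie above it.

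The difference between genotypes was compared between ages by interaction terms. From week 5 to week 12, 0 of 32 receptor genes were called by limma, where 0.667% of all genes were called. At an unadjusted p under 0.05 there were 7 receptor genes, beside 1628 of the 13487 genes tested. From week 12 to week 28 the test called 0 receptor genes and 0 of all genes. In that interval 4 receptor genes had an unadjusted p under 0.05, beside 1365 of all genes. Without transgenic week 28 replicate 3, Gria1 and Gria4 were called there, at adjusted p of 0.0324 and 0.0236. A gene called at week 28 and not at week 12 is therefore not shown to differ between these ages.

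The comparisons of ages within a genotype use the same libraries as those above, so the 2 kinds of comparison are not independent. Gabra3, an alpha subunit of benzodiazepine-sensitive receptors, rose through both intervals in Cck-/- cerebella. It was 4.98, 5.28 and 5.07 FPKM at week 5, 8, 7.9 and 6.63 at week 12 and 10.5, 9.5 and 9.25 at week 28, with no overlap between ages (log2 change 0.47, SE 0.08, adjusted p = 0.0018 for the first interval and log2 change 0.34, SE 0.08, adjusted p = 0.0185 for the second). In transgenic cerebella it was 6.91, 7.13 and 8.13 at week 12 and 9.37, 11.4 and 10.8 at week 28 (log2 change 0.46, SE 0.08, adjusted p = 0.00166), after 6.08, 6.95 and 6.83 at week 5. The transgenic groups of weeks 12 and 28 did not overlap, while those of weeks 5 and 12 did.

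In Cck-/- cerebella 2 of 32 receptor genes, Gabra3 among them, were called from week 5 to week 12, beside 11.8% of all genes. From week 12 to week 28 in Cck-/- cerebella, 5 were called beside 9.65%, 2 higher beside 4.03% and 3 lower beside 5.62%. Grin2d, an NMDA subunit that gives slowly decaying currents, rose from 4.57 ± 0.456 to 6.16 ± 0.911 FPKM (SD, n = 3 each) alongside Gabra3. Grik2 fell from 23.4, 21.6 and 24.8 to 17.2, 19.3 and 20.5 FPKM without overlap (log2 change -0.28, SE 0.06, adjusted p = 0.013). Gabrb2 fell from 88.4, 76.8 and 86.1 to 70.4, 70.6 and 71.6 (log2 change -0.24, SE 0.06, adjusted p = 0.0225), and Gabrb1 from 12.4 ± 0.546 to 9.68 ± 1.16 (log2 change -0.33, SE 0.09, adjusted p = 0.031). Without Cck-/- week 12 replicate 3, Grin2d was the single receptor gene called in this interval, and Gabra3 was also lost without Cck-/- week 28 replicate 1. Grik2 was kept in 5 of the 6 fits that left out 1 library, and none of the 5 genes when the 2 groups were fitted alone.

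In transgenic cerebella 0 receptor genes were called by limma from week 5 to week 12, beside 1.19% of all genes. At an unadjusted p under 0.05 there were 7 of the 32 receptor genes, beside 1821 of the 13487 genes tested. From week 12 to week 28, 12 were called beside 23.8% of all genes, 5 higher beside 10.2% and 7 lower beside 13.7%. Among those that fell were Gria4 (-0.48), Grik1 (-0.49), Gria1 (-0.76), Gabra6 (-0.40) and Gabrb2 (-0.21 on the log2 scale), of which Gria4, Grik1 and Gria1 were also lower than in Cck-/- at week 28. Those that rose were Gabra3, Gabra2, Gria2, Grin3a and Gabrg1. Gria2 went from 79.8, 70.4 and 73.3 to 92.8, 99.3 and 87.9 FPKM, without overlap (log2 change 0.32, SE 0.08, adjusted p = 0.00963). Gabra2, a neighbour of Gabrg1 on chromosome 5, went from 11.8, 9.44 and 14.4 to 24.6, 23.5 and 22.9, also without overlap (log2 change 0.96, SE 0.30, adjusted p = 0.0335), and Gabrg1 rose by 0.27. Gabra6 went from 315, 381 and 413 to 265, 282 and 286, without overlap (log2 change -0.40, SE 0.14, adjusted p = 0.0496). Of 14 alternative fits, the call of Gabra6 was kept in 3, that of Gabrg1 in 5, that of Gabra2 in 6 and that of Gria2 in 12. Leaving out 1 library of these groups gave between 3 and 11 calls, the fewest without transgenic week 28 replicate 2. The 2 libraries in which Xist and Y-linked genes occur together belong to these groups, and without them Gabra3 and Grik1 were the receptor genes called, at adjusted p of 0.0106 and 0.0214.

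Markers of several cell types moved over the same intervals. In Cck-/- cerebella all 8 oligodendrocyte markers fell from week 5 to week 12, with summed FPKM of 4943 to 5980.3 and then 2271 to 2648, and 2 of 10 granule neuron markers fell, with sums of 1931 to 2055 and then 1570.3 to 1802. From week 12 to week 28 in Cck-/- cerebella, 1 of 8 microglia markers rose, with sums of 80.0 to 88.5 and then 93.6 to 136, and 2 granule neuron markers fell, to overlapping sums of 1150.1 to 1615. In transgenic cerebella over that interval all 10 Purkinje cell markers fell, with sums of 2480.0 to 2717 and then 1017 to 1966, and all 8 microglia markers rose, with sums of 89.8 to 126 and then 145 to 204. There 2 granule neuron markers also fell, with sums of 1577 to 1849 and then 1412 to 1513, without overlap. No marker of these 4 lists was at 0, and their part in the changes with age was not tested.

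**Figure D4:**
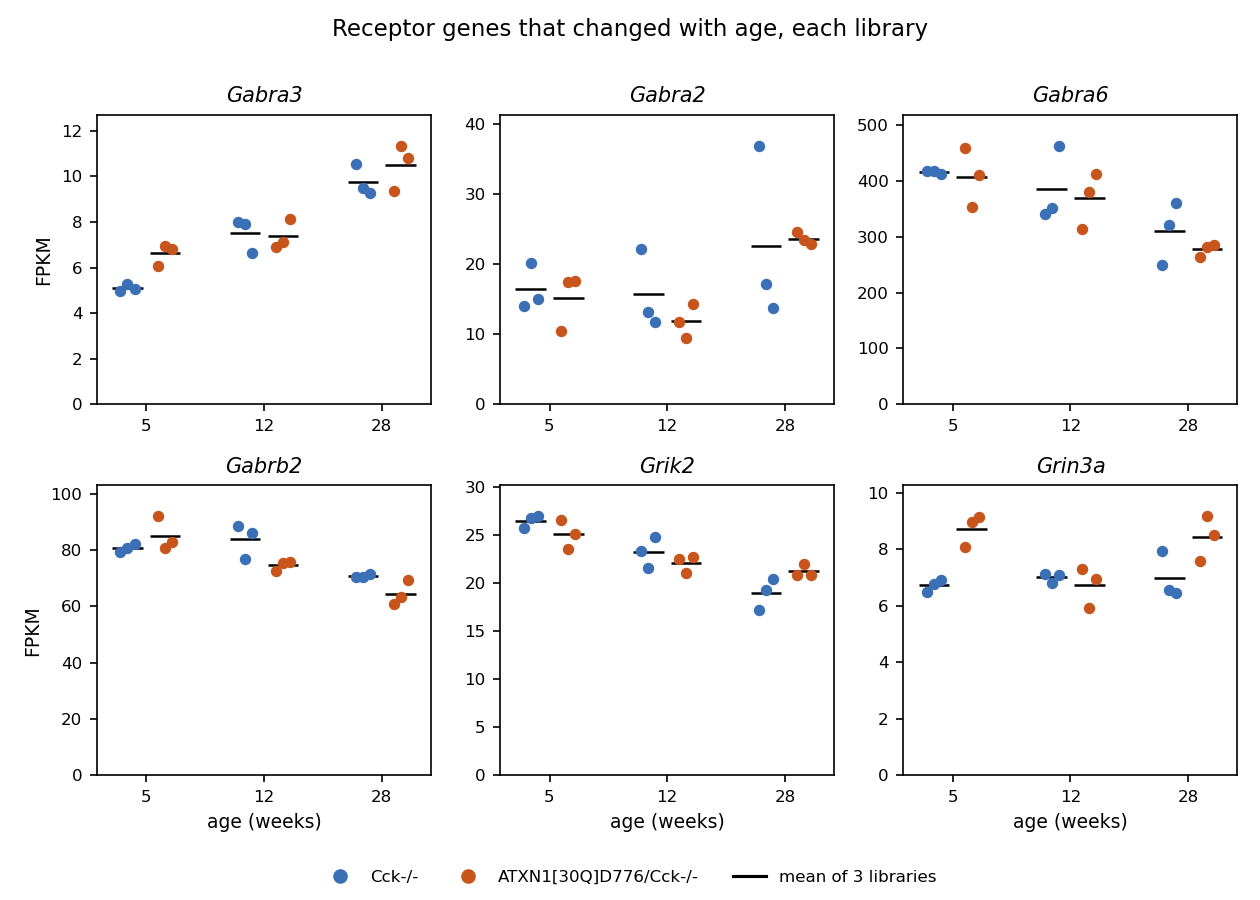
FPKM of 6 receptor genes in each library by age in weeks, by genotype, with bars at the mean of 3 libraries. Gabra3 is higher in all libraries of week 28 than in all of week 12 in each genotype, and Grik2 and Gabrb2 are lower at week 28 than at week 12 in all Cck-/- libraries.

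Genes that work with these receptors were taken from lists of partners, of which every member found in the table is counted. The lists were chosen with earlier results of these data known, so their shares beside all genes are descriptive. Purkinje cell markers also fell at week 28, and their part in the partner counts was not tested. Of 33 partners of AMPA, kainate and NMDA receptors, 13 fell and 0 rose at week 28, where 6.13% of all genes fell. Shank2, a scaffold of the postsynaptic density, changed by -0.88 (SE 0.13, adjusted p = 0.000447) on the log2 scale. Cnih2, an AMPA receptor chaperone, changed by -0.44 (SE 0.07, adjusted p = 0.00121). Dlg2, a scaffold that binds NMDA receptors, changed by -0.44 (SE 0.08, adjusted p = 0.0015), and Shisa6, an AMPA receptor auxiliary subunit, by -0.79 (SE 0.15, adjusted p = 0.00404). These 4 were called in each fit that left out 1 library of week 28, while the count of partners that fell ran from 7 to 14 and was 7 without Cck-/- replicate 2 or transgenic replicate 2. With the groups of week 28 fitted alone, Shank2 was the single partner called. At week 12 the single partner called was Camk2a, a kinase of excitatory synapses (log2 change -1.18, SE 0.26, adjusted p = 0.0324). Of all genes, 1.36% were called at week 12 and 1.08% were called lower. At week 5, 2 of the 33 partners fell, where 4.37% of all genes fell.

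Of 9 partners that tether delta receptors across the synapse, including Cbln1 and the neurexins, 0 were called between genotypes at any age by limma, beside 7.67%, 1.36% and 10.7% of all genes at weeks 5, 12 and 28. At an unadjusted p under 0.05 there were 3 of the 9 at week 5, beside 3010 of the 13487 genes tested. There were 0 at weeks 12 and 28, beside 1623 and 3483 of all genes. At week 5, 8 of the 9 had log2 differences below 0, with a median of -0.16 beside 0.00034 over all genes tested, and 4 were lower without overlap, beside 16% of all genes. Of 20 partners of GABA-A and glycine receptors, 1 rose at week 28, Mdga1, which binds neuroligin (log2 change 0.51, SE 0.11, adjusted p = 0.00979), and 0 fell, beside 4.54% and 6.13% of all genes. In the 3 fits without transgenic replicate 3, without Cck-/- replicate 1 and without the libraries low in choroid plexus genes, between 1 and 4 of them fell.

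Of 11 genes of GABA and glycine supply, uptake and chloride, 3 fell and 1 rose at week 28, where 6.13% of all genes fell and 4.54% rose: the GABA-synthesising Gad1 (log2 change -0.28, SE 0.08, adjusted p = 0.0295) and Gad2 (log2 change -0.25, SE 0.07, adjusted p = 0.0449) and the vesicular transporter Slc32a1 (log2 change -0.27, SE 0.08, adjusted p = 0.0431) fell, and the GABA-degrading Abat rose by 0.21. The 3 falls were all lost without transgenic replicate 1 or 2 or Cck-/- replicate 1 or 2. Of 10 genes of glutamate supply and uptake, the transporters Slc1a6 of Purkinje cells (log2 change -1.02, SE 0.14, adjusted p = 0.000229) and Slc1a3 of Bergmann glia (log2 change -0.72, SE 0.12, adjusted p = 0.00145) fell and Glud1 rose by 0.19, beside the same shares of all genes. Both transporters are also in the marker lists given above for those cells. Gad2 is likewise in the interneuron list, so its fall is counted in both places. Of 9 metabotropic glutamate and GABA-B receptor genes, 4 fell at week 28 and 0 rose, again beside 6.13% and 4.54% of all genes. Gabbr1, a GABA-B receptor subunit, was called lower at weeks 5, 12 and 28, with log2 changes of -0.32, -0.55 and -0.67. Gabbr2 and Grm7 changed by -0.40 and -0.47 at week 28, and of these Grm7 stayed called in each fit that left out 1 library of that age.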

How the data were processed

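RNA-seq was measured in 18 cerebellar libraries. Per the submitters' processing notes, reads were handled with TopHat2 2.0.11 and Cufflinks 2.2.1 on mm10; per the labels' protocols, total RNA was prepared with TRIzol and RNeasy and libraries with the TruSeq RNA kit. The deposited values are FPKM per gene, with an interval and a status for each, per the file headers; the sources used here do not give annotation, strand use, filters or scaling across libraries. FPKM is per length and per library, so a large change in a few genes can move the rest, and no counts or depth can be read from it.

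From the FPKM values, log2(FPKM + 1) was fitted with limma 3.58.1 in R 4.3.3 (6 group means, all 18 libraries, mean-variance trend, 12 residual degrees of freedom; genes at 1 FPKM or more in 3 or more libraries). P-values were adjusted by Benjamini-Hochberg over 13487 genes within each of 10 comparisons and called under 0.05. The fit was also run on simulated data with independent noise for each gene and the same spread in every group. That simulation held no single libraries that stand apart, so it does not check how far the calls rest on such libraries. No estimate of a receptor gene carried a failed status. Alternatives were a pseudocount of 0.1, no filter, median-ratio rescaling, no trend, a replicate block, the compared groups alone, leaving out each replicate, and leaving out the 3 libraries lowest in choroid plexus markers or the 2 where Xist and Y-linked genes occur together. Full statistics are given to receptor genes called in a comparison and, of each partner list, at most the 4 called genes with the smallest p are named as examples; other receptor genes are named with values since all belong to the set. Counts and shares cover all receptor genes, of which some are not reported here by name. The members, lists and markers were chosen with earlier results of these data known. Promoter windows are from RefSeq.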

Additional observations from a re-analysis of the deposited data

Results flagged for a closer look

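The difference between genotypes in Grik4 changed with age. The interaction of genotype with week 28 against week 5 was -0.51 on the log2 scale (SE 0.13, adjusted p = 0.0382 by limma). Grik4 was higher in 3 of 3 transgenic libraries than in every Cck-/- library at week 5 and lower in 3 of 3 at week 28. It was the single receptor gene called of 32, where 3.65% of all genes were called. At week 5 the level of Cck and the transgene cannot be told apart, so they cannot be in this term either. The call was lost in 12 of the 20 alternatives run, among them 10 of the 12 that left out 1 library. Groups of 3 libraries were not tested for single libraries that stand apart.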

How the results depend on the processing

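The count of receptor genes called depended on the processing. With the compared groups fitted alone, it was 7 at week 5, 0 at week 12, 2 at week 28, 0 in Cck-/- from week 12 to 28 and 3 in transgenic cerebella over that interval. With a replicate block it was 1 at week 12, 2 at week 28 and 1 in Cck-/- from week 5 to 12. Replicate numbers showed no clear pairing of the libraries. Correlations of same-numbered libraries of an age ran from -0.16 to 0.435, and those of differently numbered ones from -0.485 to 0.478. Among the 18 libraries, 6 correlated best with their own number. With 3 libraries a group these values cannot settle whether libraries were paired. With no filter Gabrr2, which is below the threshold, was called higher at week 28 and Gria4 was lost, so the count there stayed at 6. With that setting it was 0 at week 12 and 0 for the week 28 minus week 5 effect. Without the 3 libraries low in choroid plexus genes it was 0 at week 5, 10 at week 28 (1 higher, Gria2, and 9 lower), 3 for week 28 minus week 5 and 1 in Cck-/- from week 5 to 12. Without the 2 libraries where Xist and Y-linked genes occur together it was 0 at week 12, 3 at week 28, 0 for week 28 minus week 5, 1 in Cck-/- from week 5 to 12 and 2 in transgenic cerebella from week 12 to 28. Leaving out 1 library gave 0 to 4 at week 5, 0 to 2 at week 12, 2 to 9 at week 28, 0 to 2 for week 28 minus week 12, 0 to 7 for week 28 minus week 5, 1 in each fit for Cck-/- from week 5 to 12, 1 to 5 for Cck-/- from week 12 to 28 and 3 to 11 for transgenic cerebella from week 12 to 28. Grik1 was called at week 28 in every one of these alternatives. Over all alternatives run, 0 of the log2 changes of the receptor genes called in a comparison reversed; the cause of the lost calls was not tested. A pseudocount of 0.1, rescaling and no trend each kept every count within 1.5 times. Single calls were still lost, among them Grik1 at week 5 with that pseudocount and Gria4 at week 28 with no trend. FPKM gives no depth, so the number of reads behind values near 1 FPKM (Glra1, Gabra5, Grin2b) is unknown.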
